A study of Mus musculus with 4 samples.

Results

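Fabp4 and Gpihbp1 endothelial nuclei are the nuclei of 4 mouse hearts in which Fabp4, Gpihbp1 and 3 other capillary genes outweigh, in summed counts, the genes that lead the other endothelial nuclei. They were chosen by their own counts of UMIs (unique molecular identifiers, each standing for 1 captured RNA molecule). A nucleus had to carry at least 500 UMIs, 300 genes, under 5% mitochondrial UMIs and under 3% of its UMIs from the cardiomyocyte genes Ttn, Ryr2 and Myh6. It needed 3 or more UMIs over the endothelial genes Flt1, Ptprb, Pecam1 and Cdh5, at most 2 over the endocardial genes Npr3, Tmem108 and Nrg1, and at most 1 over Pdgfra, Pdgfrb and Mrc1, which mark stromal cells and macrophages. Among the nuclei that passed these gates, called endothelial nuclei here, members held 4 or more UMIs over Fabp4, Gpihbp1, Cxcl12, Btnl9 and Ly6c1 (set R) and more of set R than of Ccdc85a, Slc28a2, Cdh23 and Eepd1 (set P) or of Kirrel3, Lhx6, Samd5, Vegfc and Kcnc2 (set Q). The rule found 1219 members among 38134 nuclei (3.20%) and among 7726 endothelial nuclei (15.8%). They numbered 257 and 384 in the libraries of offspring of injured fathers and 291 and 287 in those of offspring of uninjured fathers.

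Each library was 1 whole heart of a male wild-type (WT) C57BL/6J mouse. Every heart had been injured at day 1 post partum and was taken 21 days after that injury, so no uninjured heart enters any comparison. The groups differ in the father: 2 libraries are from offspring of injured fathers (injured-father libraries 1 and 2), and 2 from offspring of uninjured fathers (uninjured-father libraries 1 and 2). The tissue was snap frozen, and blood cells were excluded by sorting with an antibody to Ter119, an erythroid surface antigen. Nuclei were read with droplet 3' sequencing, which counts RNA inside and around nuclei and not in whole cells. Which fathers sired which offspring, and from which litters, is not given in the sources used here.

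Capillary endothelium of the heart passes fatty acids from blood lipoproteins to cardiomyocytes. Gpihbp1 carries lipoprotein lipase to the capillary lumen, Cd36 takes up the released fatty acids, and Fabp4 binds them inside the endothelial cell. Cxcl12 is a chemokine of arterial and capillary endothelium that guides coronary growth, Btnl9 is a butyrophilin-like surface protein of capillaries, and Ly6c1 is a surface antigen of microvascular cells. Capillary endothelium grades into arterioles, where Notch signalling and genes such as Hey1, Sox17 and Efnb2 are high, and into venules, where Nr2f2 and Vwf are high.

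Promoter sequences are shown for 3 of the genes that chose the members (Btnl9, Cxcl12 and Ly6c1) and for Camk1d, the gene that passed the test between fathers. They run 5′ to 3′ on the gene's strand, from 250 bases before to 50 after the RefSeq start, in the GRCm38.p6 build. Capitals mark an ETS core (CAGGAA or CCGGAA) or a TATA box (TATAAA) on either strand. ETS factors such as Erg and Fli1 are regulators of endothelial genes.
Btnl9, chr11:49187040-49187339, minus strand: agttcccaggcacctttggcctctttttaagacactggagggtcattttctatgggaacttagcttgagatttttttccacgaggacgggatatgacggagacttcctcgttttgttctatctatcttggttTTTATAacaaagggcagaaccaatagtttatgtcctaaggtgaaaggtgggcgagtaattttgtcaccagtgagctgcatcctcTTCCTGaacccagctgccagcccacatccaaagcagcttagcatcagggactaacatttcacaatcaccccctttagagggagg
Cxcl12, chr6:117168285-117168584, plus strand: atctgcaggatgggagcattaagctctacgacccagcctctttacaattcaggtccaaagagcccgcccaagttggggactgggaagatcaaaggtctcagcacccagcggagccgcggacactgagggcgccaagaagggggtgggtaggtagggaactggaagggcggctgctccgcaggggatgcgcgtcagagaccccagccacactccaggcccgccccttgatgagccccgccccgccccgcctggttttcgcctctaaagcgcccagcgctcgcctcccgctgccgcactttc
Ly6c1, chr15:75048788-75049087, minus strand: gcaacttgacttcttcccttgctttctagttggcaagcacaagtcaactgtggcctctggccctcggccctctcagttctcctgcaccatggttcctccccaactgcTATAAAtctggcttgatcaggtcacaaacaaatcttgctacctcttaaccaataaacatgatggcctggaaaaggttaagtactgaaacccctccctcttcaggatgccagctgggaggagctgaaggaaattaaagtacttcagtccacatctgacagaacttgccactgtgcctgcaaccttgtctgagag
Camk1d, chr2:5714713-5715012, minus strand: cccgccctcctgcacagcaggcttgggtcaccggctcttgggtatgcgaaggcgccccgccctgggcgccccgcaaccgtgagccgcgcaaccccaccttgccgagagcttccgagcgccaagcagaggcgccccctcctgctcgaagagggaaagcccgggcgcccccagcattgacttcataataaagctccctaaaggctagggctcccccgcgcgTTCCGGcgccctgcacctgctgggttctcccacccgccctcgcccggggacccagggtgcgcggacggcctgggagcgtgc
The Btnl9 window held 1 CAGGAA and 1 TATAAA, the Ly6c1 window 1 TATAAA, the Camk1d window 1 CCGGAA, and the Cxcl12 window none of these. The RefSeq table holds a second start for Ly6c1 and for Camk1d: that Ly6c1 window held none of these, and that Camk1d window held 1 CAGGAA and no CCGGAA. Among 32851 RefSeq promoters of the same length, 30.6% held CAGGAA, 14.9% CCGGAA and 13.6% TATAAA. These matches describe letters only.

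The genes of set R chose the members, so their levels describe the choice. Levels are CPM, the UMIs of a gene per 1000000 UMIs summed over the nuclei of a library, given for injured-father libraries 1 and 2 and then uninjured-father libraries 1 and 2. Fabp4 (chromosome 3, 10204088 to 10208576 in GRCm38) stood at 2649, 3419, 3662 and 3295 CPM in members. In the endothelial nuclei led by set P (Ccdc85a-led, 2845 nuclei, 4 or more UMIs and the most of the 3 sets) it stood at 591, 762, 705 and 789 CPM. Gpihbp1 (chromosome 15, 75596628 to 75599481) stood at 351, 404, 436 and 484 CPM in members and 107, 137, 149 and 158 CPM in Ccdc85a-led nuclei. Every member library lay above every other library for both genes. In the nuclei led by set Q (Kirrel3-led, 1196 nuclei) the means were 621 ± 141 CPM for Fabp4 and 81.6 ± 28.3 CPM for Gpihbp1 (SD, n = 4 libraries).

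**Figure D1:**
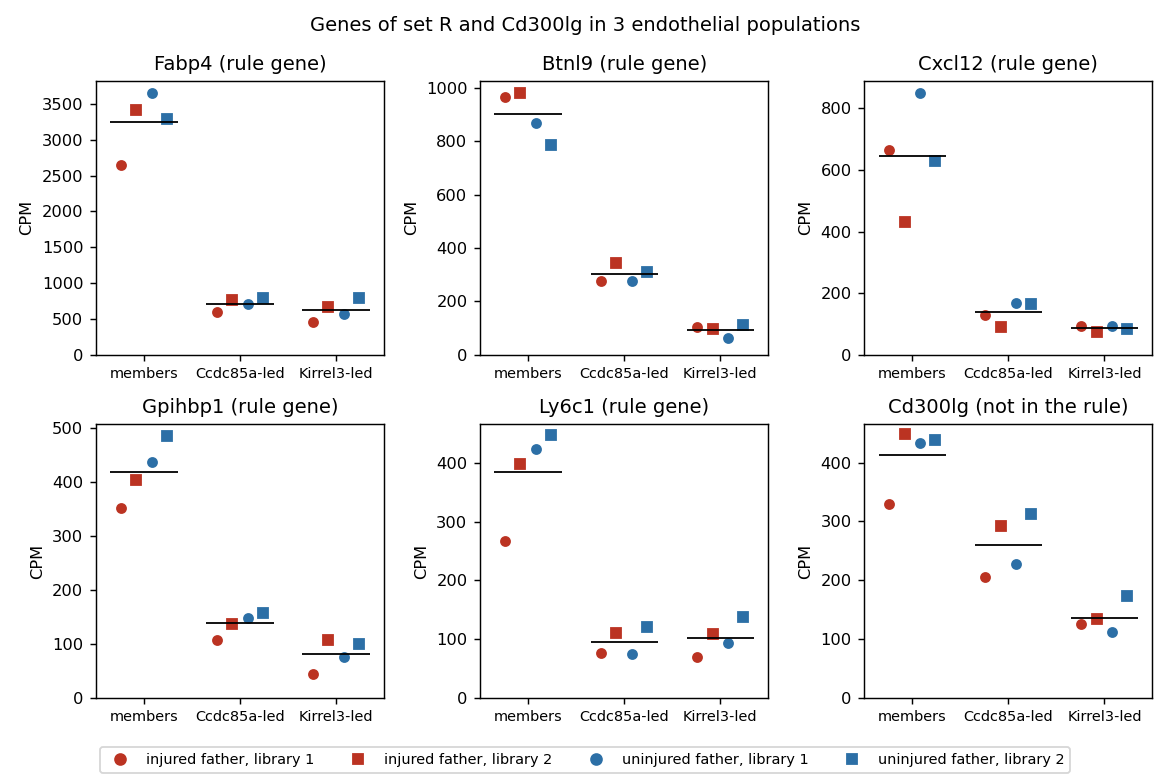
CPM of the 5 genes of set R and of Cd300lg in each library (points; red for injured fathers, blue for uninjured fathers) for members, Ccdc85a-led and Kirrel3-led nuclei, with the mean of the 4 libraries as a line. Set R is higher in members by construction; Cd300lg, which the rule did not use, is at 329 to 448 CPM in members and 206 to 312 CPM in Ccdc85a-led nuclei.

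Levels of marker genes of the named cell type were compared between populations. Cd300lg (nepmucin, a capillary surface glycoprotein) stood at 329, 448, 433 and 438 CPM in members, at 206, 291, 228 and 312 CPM in Ccdc85a-led nuclei and at 125, 134, 112 and 173 CPM in Kirrel3-led nuclei. All 4 member libraries lay above all the others. Cd300lg is outside the rule but is listed with set R as a marker of the members, so this is no independent check. Among members its level rose with the number of set R UMIs, as given below. After each nucleus was thinned to 1000 UMIs, 33.4% of members held a Cd300lg UMI, as did 22.6% of Ccdc85a-led nuclei, 11.97% of Kirrel3-led nuclei and 0.940% of the nuclei set aside by the cardiomyocyte gate, which should lack the gene. Unthinned, 53.3% of members held one. The 12 pan-endothelial markers, some of them in the gate, summed to 9295 to 10307 CPM in members and 8650 to 9405 CPM in Ccdc85a-led nuclei. Markers of arteries and lymphatics were also found among the members, as described next.

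Most members rested on Fabp4. It was detected in 92.5% of them and gave 58.4% of the UMIs of set R, against 16.2% for Btnl9, 11.1% for Cxcl12, 7.39% for Gpihbp1 and 6.85% for Ly6c1. In nuclei set aside by the cardiomyocyte gate, Fabp4 was found in 3.32% after thinning to 1000 UMIs, against 83.5% of members so thinned. Fabp4 was the leading gene in 769 members (63.1%), Btnl9 in 213 (17.5%) and Cxcl12 in 81 (6.64%), while 130 (10.7%) had a tie. A single gene of set R was present in 69 members, and all 5 were present in 153. The median member held 8 UMIs of set R. At the threshold, 184 members held exactly 4 (median of 1454 UMIs in all), 186 endothelial nuclei led by set R held 3 and stayed outside (median 1326 UMIs), and 1220 held 4 or more but were not led by set R.

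Members carried more RNA of ribosomal protein, mitochondrial and haemoglobin genes than the other endothelial nuclei. Ribosomal protein genes summed to 11142, 11384, 16587 and 10130 CPM in members and to 3960, 3835, 4509 and 4259 CPM in Ccdc85a-led nuclei. Haemoglobin genes, which belong to red blood cells, summed to 4320, 7098, 9006 and 4493 CPM in members and to 1764, 2402, 3280 and 2127 CPM in Ccdc85a-led nuclei. Mitochondrially encoded genes summed to 14044, 11523, 13616 and 12168 CPM in members against 8853, 7077, 8374 and 8422 CPM. For each of the 3 groups, every member library exceeded every Ccdc85a-led library. Median depth was 1972 UMIs per member and 1768 UMIs per Ccdc85a-led nucleus. The part of cytoplasmic or free RNA in the levels below was not tested, and the comparisons of levels with Ccdc85a-led nuclei were repeated in nuclei with under 1% mitochondrial UMIs and at least 500 genes (576 members, 2099 Ccdc85a-led nuclei). In these low mitochondrial nuclei, over all libraries together, mitochondrial genes were at 5433 CPM in members and 4492 CPM in Ccdc85a-led nuclei. In the same order, ribosomal protein genes were at 7242 and 3293 CPM and haemoglobin genes at 4357 and 2027 CPM. The comparisons with Kirrel3-led nuclei were not repeated.

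The rule worked on the counts of these same nuclei, so differences between populations are given as levels with no test. As background, of 9857 genes with at least 20 UMIs in members, 19.4% were higher in members than in Ccdc85a-led nuclei in all 4 libraries and 12.4% were lower in all 4. Against Kirrel3-led nuclei these shares were 20.6% and 15.1%. Within nuclei under 1% mitochondrial UMIs, 12.5% were higher and 8.7% lower than in Ccdc85a-led nuclei. The counts over gene lists between populations take only list genes with at least 20 UMIs in members.

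Most arterial markers were higher in members than in Ccdc85a-led nuclei. Of 10 arterial markers, 8 (80.0%) were above Ccdc85a-led nuclei in all 4 libraries, against 19.4% of all genes. The 10 summed to 942, 997, 1057 and 939 CPM against 501, 523, 547 and 560 CPM. Against Kirrel3-led nuclei, 5 of the 10 were higher in members in all 4 libraries (Hey1, Efnb2, Sox17, Dll4 and Unc5b). Another 2 were lower (Gja5 and Bmx), and Sema3g held in neither direction. The values that follow set members against Ccdc85a-led nuclei. Hey1, a transcription factor induced by Notch, stood at 33.4, 34.2, 36.6 and 37.0 CPM in members and at 7.53, 4.23, 6.82 and 3.45 CPM in Ccdc85a-led nuclei. Sema3g, a semaphorin of arterial endothelium, stood at 40.1, 55.5, 54.9 and 66.5 CPM against 12.3, 12.7, 8.34 and 9.21 CPM. The 2 sets of libraries did not overlap for either gene. Sox17, a factor of arterial fate, stood at 72.7 ± 23.4 CPM against 27.3 ± 5.74 CPM, and Efnb2, the arterial ephrin, at 483 ± 52.8 CPM against 295 ± 31.3 CPM (SD, n = 4 libraries). Unc5b, a netrin receptor, stood at 168 ± 20.3 CPM against 103 ± 17.3 CPM. In nuclei with under 1% mitochondrial UMIs, 7 of the 10 (70.0%) were higher in all 4 libraries, against 12.5% of all genes. Hey1 stood there at 37.7 ± 3.51 against 5.42 ± 2.69 CPM.

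**Figure D2:**
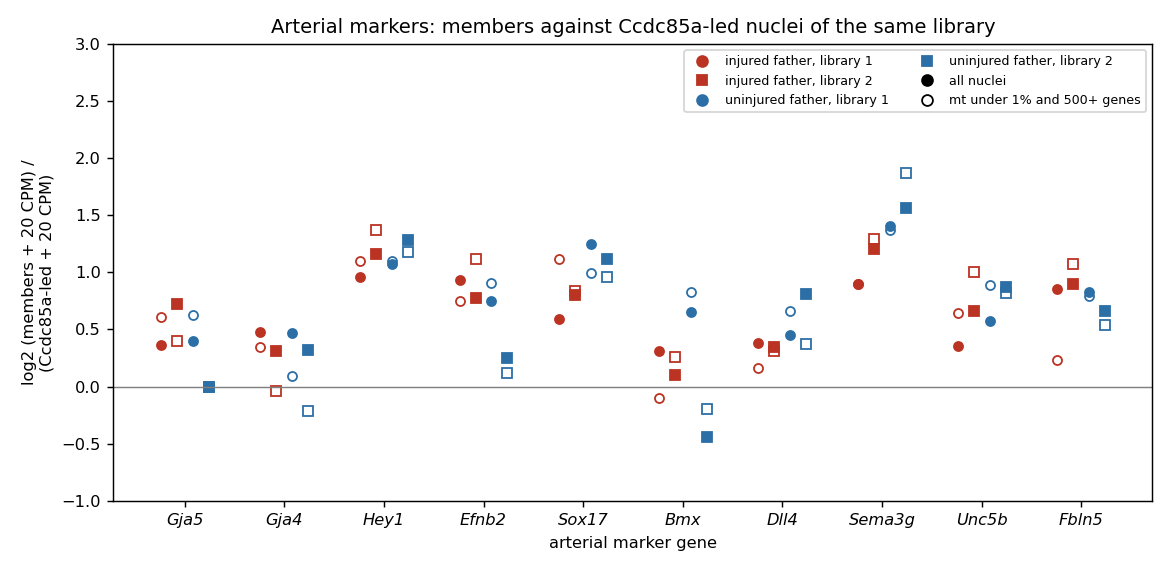
log2 ratio of CPM in members to CPM in Ccdc85a-led nuclei of the same library, with 20 CPM added to both, for 10 arterial markers (x axis). Filled points are all nuclei and open points those with under 1% mitochondrial UMIs and at least 500 genes; Hey1, Sema3g and Sox17 lie above 0 in every library, Bmx does not.

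Gja5, Bmx, Vwf and Nr2f2 had their highest means in Kirrel3-led nuclei among the 3 populations. Gja5, a gap junction gene of arteries and arterioles, stood at 6.68, 19.2, 8.44 and 0 CPM in members and at 0.684, 3.76, 1.52 and 0 CPM in Ccdc85a-led nuclei, with 28 and 11 UMIs in all. Bmx, a kinase gene of arterial endothelium, stood at 15.0, 17.1, 19.7 and 7.39 CPM in members and at 8.21, 14.6, 5.30 and 17.3 CPM in Ccdc85a-led nuclei. Each was higher in members in the first 3 libraries and not in uninjured-father library 2, so neither held in all 4. After thinning to 1000 UMIs, Gja5 was found in 0.433% of members, 0.114% of Ccdc85a-led nuclei and 0.723% of the nuclei set aside by the cardiomyocyte gate. In Kirrel3-led nuclei the means were 31.9 ± 13.1 CPM for Gja5 and 77.2 ± 65.1 CPM for Bmx (SD, n = 4 libraries), and both were higher there than in members in all 4 libraries. Vwf, the von Willebrand factor, stood at 43.4, 29.9, 33.8 and 20.3 CPM in members and at 334, 339, 445 and 324 CPM in Kirrel3-led nuclei. Nr2f2, the venous fate factor, stood at 62.4 ± 5.53 CPM in members, 59.7 ± 10.7 CPM in Ccdc85a-led and 249 ± 65.4 CPM in Kirrel3-led nuclei. The venous receptor Ackr1 had a UMI in 0 of 1219 members, which allows a share of members with a UMI of up to 0.246%.

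Of 28 genes of lipoprotein lipolysis and fatty acid transport with at least 20 UMIs in members, 11 were higher than in Ccdc85a-led nuclei in all 4 libraries. That is 39.3%, against 19.4% of all genes. Another 3 were lower (10.7%), near the 12.4% of all genes. Fabp4 and Gpihbp1 are among the 11 by the rule. The others include Cd36 at 1721, 3294, 2650 and 2242 CPM against 1264, 2457, 1638 and 1469 CPM. For Cd36 the groups of libraries overlap, although each member library lay above the Ccdc85a-led nuclei of its own heart. Fabp5, a second fatty acid binding protein, stood at 156 ± 24.9 CPM against 48.0 ± 17.1 CPM and Lpl, the lipase itself, at 515 ± 111 CPM against 392 ± 84.3 CPM. Tcf15, a partner of Meox2 in driving fatty acid uptake of heart capillaries, stood at 132 ± 32.3 CPM against 74.7 ± 11.9 CPM. Meox2 itself went the other way, at 932, 988, 875 and 845 CPM in members and 1243, 1329, 1122 and 1038 CPM in Ccdc85a-led nuclei. Rbp7, a retinol binding protein of heart capillaries, stood at 55.1, 123, 127 and 105 CPM against 17.1, 28.7, 12.9 and 24.2 CPM, with no overlap. In nuclei with under 1% mitochondrial UMIs, 12 of the 28 lipid genes (42.9%) were higher in all 4 libraries, against 12.5% of all genes. Fabp4 and Gpihbp1 are again among them by the rule.

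Single genes of VEGF, Notch and BMP signalling differed in level between populations, in both directions. Kdr, the main VEGF receptor, stood at 718, 755, 840 and 911 CPM in members, 508, 454, 514 and 584 CPM in Ccdc85a-led nuclei and 221, 237, 197 and 245 CPM in Kirrel3-led nuclei, with no overlap between any of the 3. Of 9 VEGF receptors and ligands with at least 20 UMIs in members, 2 were higher than in Ccdc85a-led nuclei in all 4 libraries (Kdr and Flt4). Another 1 was lower (Nrp2). The share of 22.2% higher is near the 19.4% of all genes. Against Kirrel3-led nuclei 3 (33.3%) were higher and 3 (33.3%) lower (Flt1, Vegfa and Vegfc, of which Vegfc is in set Q). Of all genes, 20.6% were higher and 15.1% lower than in Kirrel3-led nuclei. The Notch ligand Dll4 stood at 80.2, 75.8, 106 and 99.8 CPM in members and 56.8, 55.5, 72.0 and 48.4 CPM in Ccdc85a-led nuclei, and the receptor Notch1 at 231 ± 7.04 against 147 ± 13.5 CPM. Of 16 Notch genes with at least 20 UMIs in members, 6 (37.5%) were higher than in Ccdc85a-led nuclei in all 4 libraries and 1 (6.25%) was lower. The shares of all genes were 19.4% and 12.4%. Against Kirrel3-led nuclei 8 (50.0%) were higher and 6 (37.5%) lower. Of 20 BMP and TGF-beta genes, 12 were higher and 5 lower than in Ccdc85a-led nuclei, and 6 higher and 7 lower than in Kirrel3-led nuclei. Id1 and Id3, targets of BMP signalling, stood at 263 ± 68.8 and 229 ± 39.9 CPM in members and at 95.3 ± 26.1 and 83.1 ± 33.4 CPM in Ccdc85a-led nuclei. The ligand Bmp6 was lower in members, at 405 ± 105 against 670 ± 109 CPM.

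Inducible genes were often higher in members. Of 17 immediate early and heat shock genes, 14 were higher than in Ccdc85a-led nuclei in all 4 libraries, among them Jun at 113 ± 20.6 against 52.2 ± 10.6 CPM and Btg2 at 99.1 ± 7.94 against 48.7 ± 5.28 CPM. Of 25 genes of antigen presentation and interferon response, 16 were higher, among them the class I gene H2-D1 at 155 ± 28.6 against 78.8 ± 7.15 CPM and Ly6e at 414 ± 64.7 against 171 ± 44.5 CPM. Of 16 genes of tip cells and sprouting, 11 were higher, among them Sparc, a matrix protein, at 742 ± 146 against 356 ± 62.8 CPM. As shares, these 3 lists stood at 82.4%, 64.0% and 68.8% higher, against 19.4% of all genes, and no gene of them was lower in all 4 libraries. In nuclei with under 1% mitochondrial UMIs the counts were smaller, at 9 of 17, 9 of 25 and 6 of 16 (52.9%, 36.0% and 37.5%). The share of all genes was also smaller there, at 12.5%. Apart from the lists, the genes with the largest ratios that held in all 4 libraries against Ccdc85a-led nuclei included Tmsb4x, Rps20, Ifitm3, Rpl34, Rpl19, Tpt1, Rpl37a, Rpl13, Fau, Rpl35a and Ifitm2, most of them ribosomal protein genes. Tmsb4x, an actin-binding peptide, stood at 713, 669, 1085 and 726 CPM against 192, 169, 204 and 242 CPM. On the lower side Hdac9, a histone deacetylase, stood at 1042, 1157, 972 and 1233 CPM in members against 2532, 2708, 2491 and 2511 CPM, and Ncald, a neuronal calcium sensor, at 257, 241, 304 and 336 CPM against 685, 598, 660 and 527 CPM.

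Within the members, RNA make-up followed the number of set R UMIs. Ribosomal protein genes were at 5620 CPM in the 331 members with 4 to 5 UMIs, 6552 CPM in the 363 with 6 to 9, 11278 CPM in the 321 with 10 to 19 and 27139 CPM in the 204 with 20 or more. Haemoglobin genes ran from 2532 to 3708, 6617 and 13275 CPM and Cd300lg from 271 to 324, 435 and 639 CPM over the same bins. Arterial markers were at 864, 971, 1089 and 1000 CPM. Median depth also rose with the bin, from 1549 to 2936 UMIs. The bins were chosen after the values were seen, and these figures are descriptions.

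**Figure D3:**
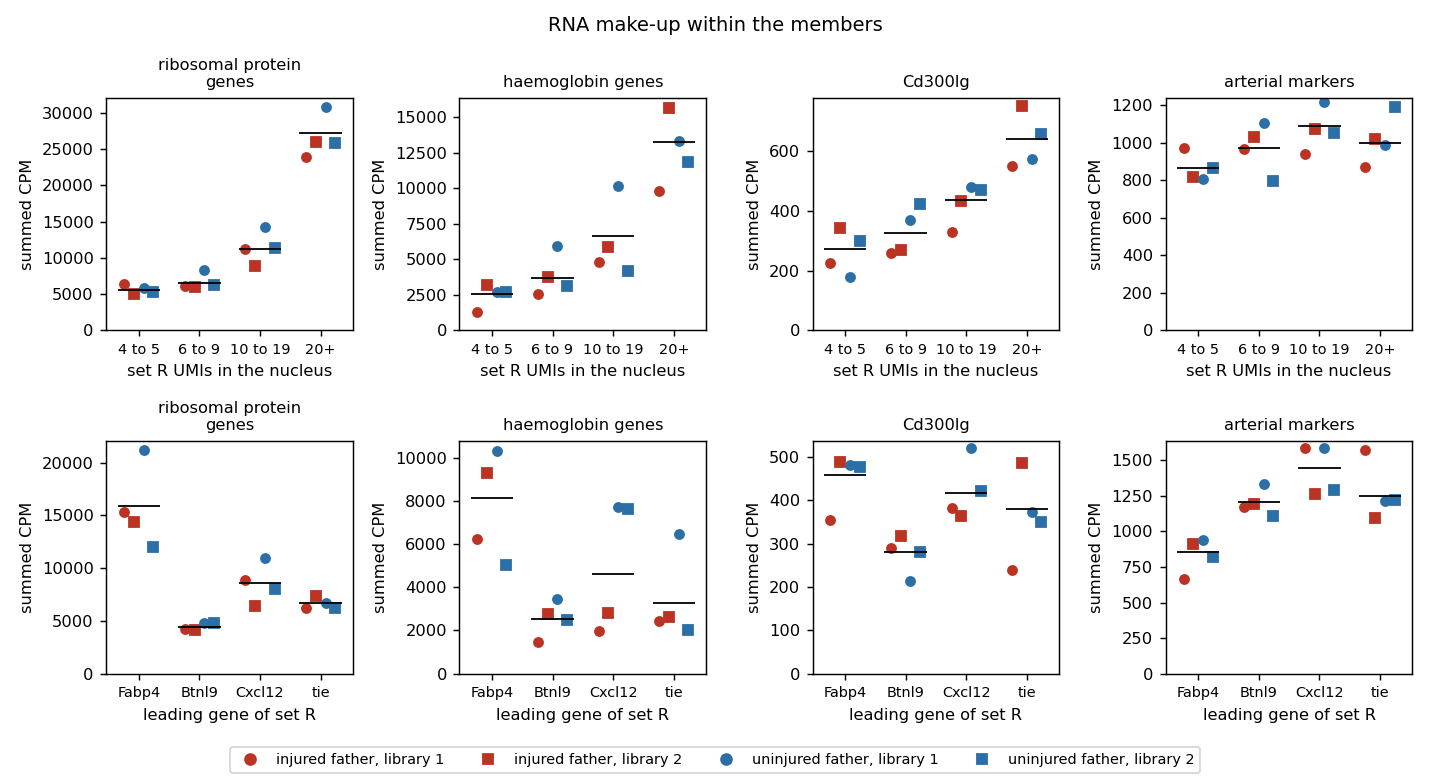
Summed CPM of ribosomal protein genes, haemoglobin genes, Cd300lg and arterial markers in members, by the number of set R UMIs in the nucleus (top) and by its leading gene (bottom); points are libraries and lines the value over all 4. Ribosomal protein genes reach 27139 CPM at 20 or more UMIs, and arterial markers reach 1442 CPM in Cxcl12-led members.

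RNA make-up also differed by leading gene, given over all 4 libraries together with no test. Cxcl12-led members (81 nuclei, median 1744 UMIs) held arterial markers at 1442 CPM. Hey1 was at 69.5 CPM there, a value from few UMIs. Btnl9-led members (213 nuclei, median 1945 UMIs) held arterial markers at 1205 CPM, with Unc5b at 281 CPM. Fabp4-led members held them at 854 CPM and carried the most ribosomal protein RNA, at 15923 CPM against 4410 CPM in Btnl9-led members. Aqp1, the water channel, was at 569 CPM in Fabp4-led, 86.9 CPM in Btnl9-led and 69.5 CPM in Cxcl12-led members. Btnl9-led members also held lymphatic markers at 547 CPM, against 135 CPM in Fabp4-led members. Over all members, the most UMIs of the lymphatic marker Mmrn1 in 1 nucleus were 14 of 17, 8 of 31, 5 of 16 and 8 of 15 in the 4 libraries. Prox1, the lymphatic fate factor, was at 130 CPM in Btnl9-led members, 18.3 CPM in Fabp4-led members and 107 CPM in nuclei set aside by the cardiomyocyte gate.

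Markers of other cell types and of the cell cycle were also counted in members, and where their UMIs came from was not tested. In the 4 libraries in turn, 4, 10, 5 and 7 members held 2 or more UMIs over 6 lymphatic markers. Cycling markers summed to 187 CPM in injured-father library 1 and 9.61 to 18.5 CPM in the other 3. There, 20 of 27 Top2a UMIs lay in 1 nucleus. Adipocyte markers summed to 115, 33.1, 8.44 and 0 CPM (the last allows up to 5.54 CPM by a limit of 3 UMIs), and 16, 4, 1 and 0 members held a UMI of Adipoq, Plin1, Cidec, Ucp1 or Lep. Fabp4 is itself an adipocyte gene. Adipocyte sums were also higher in the injured-father libraries of the other populations. They were 29.4, 49.4, 4.55 and 6.91 CPM in Ccdc85a-led nuclei and 55.4, 40.8, 2.55 and 0 CPM in Kirrel3-led nuclei. Cardiomyocyte markers summed to 4998, 7008, 6354 and 8309 CPM, against 5733 to 7247 CPM in Ccdc85a-led and 5841 to 7250 CPM in Kirrel3-led nuclei. Pericyte markers summed to 563, 613, 715 and 726 CPM, above the 276 to 412 CPM of Ccdc85a-led and 225 to 245 CPM of Kirrel3-led nuclei. Among them, Rgs5 stood at 383, 399, 480 and 329 CPM in members and 56.9, 68.7, 68.9 and 44.3 CPM in Kirrel3-led nuclei. Scrublet marked 4.28%, 4.95%, 4.81% and 9.76% of members as doublets, against 10.9% of all nuclei, and these were kept. No barcode was shared between libraries among members, and 22 to 31 were shared per pair of libraries over all nuclei.

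The shares of members in the libraries of the 2 groups of fathers overlapped. Members made up 2.81% (95% Wilson interval 2.49 to 3.17%), 3.63% (3.29 to 4.0%), 2.79% (2.49 to 3.13%) and 3.60% (3.21 to 4.03%) of the nuclei of each library. The injured-father mean was 3.22% and the uninjured-father mean 3.20%, a difference of 0.0217 percentage points (exact permutation test, two-sided, p = 0.667). Of endothelial nuclei they made up 12.4%, 16.5%, 15.6% and 19.8%, and the injured-father mean minus the uninjured-father mean was -3.26 percentage points (exact permutation p = 0.667). This difference ran from -5.37 without uninjured-father library 1 and -5.31 without injured-father library 2 to -1.22 without injured-father library 1 and -1.16 without uninjured-father library 2. With 6 or more UMIs of set R, the shares of endothelial nuclei were 8.53%, 11.9%, 12.4% and 14.0%, so the groups did not overlap (-2.98 percentage points, exact permutation p = 0.333). With 2 libraries against 2, the smallest p this test can give is 0.333. The intervals cover counting error only, and a share of nuclei cannot tell fewer cells of a kind from a different recovery of their nuclei. With every nucleus thinned to 1000 UMIs and the thresholds on set R and on the endothelial genes set to 2 UMIs, the shares of all nuclei were 3.75%, 4.28%, 3.11% and 4.25%. The shares of endothelial nuclei so thinned were 16.9%, 18.6%, 16.8% and 22.6%, and the groups overlapped (-1.92 percentage points).

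Between offspring of injured and uninjured fathers, 1 gene was higher in members and none was lower. UMIs were summed over the members of each library (598623, 936898, 710558 and 541094 UMIs), and 7995 genes were tested with edgeR's quasi-likelihood test and Benjamini-Hochberg adjustment. The background was 0.0125% of genes called higher and 0% called lower at an adjusted p under 0.05, and 481 genes had an unadjusted p under 0.05 (235 higher, 246 lower). DESeq2 and limma-voom each also called 1 higher and 0 lower. The gene was Camk1d, a calcium/calmodulin-dependent kinase (chromosome 2, 5293457 to 5714515), at 10274, 9153, 4936 and 4624 CPM. The lower of the 2 injured-father values was well above the higher uninjured-father value, and the log2 fold change was 1.05 (SE 0.12, adjusted p = 0.00573). In nuclei with under 1% mitochondrial UMIs it was 1.03 (edgeR adjusted p = 0.0612). Camk1d passed when any 1 library was left out, but the counts of genes moved: 4 higher and 2 lower without injured-father library 1, 49 and 24 without injured-father library 2, 25 and 19 without uninjured-father library 2. The nuclei set aside by the cardiomyocyte gate held 4050, 3723, 1858 and 2048 CPM, in the same order of groups.

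Several genes with the smallest p values did not pass the adjustment in members and are given as values. Slc15a2, a peptide transporter, had 50, 25, 1 and 1 UMIs, so nearly all of its UMIs were in the injured-father libraries. The ratio of the summed levels was 30.6 (interval from counting error 8.17 to 257), with an adjusted p of 0.136. In Ccdc85a-led nuclei it had 140, 71, 0 and 2 UMIs. Nrg4, a growth factor secreted by brown fat, had 28, 22, 3 and 1 UMIs (log2 fold change 3.34, SE 0.63, adjusted p = 0.271), of which 14 lay in 1 nucleus of injured-father library 1. Cidea, a lipid droplet protein of adipocytes, had 21, 16, 1 and 0 UMIs (adjusted p = 0.271). The adipocyte sum given above includes Cidea, so it is no separate measure for that gene. Of the other adipocyte markers, Plin1 had 14, 7, 1 and 0 UMIs in members, Ucp1 22, 1, 0 and 0, and Adipoq 3, 1, 0 and 0. Their part in the values of Nrg4 and Cidea was not tested. When the members with a UMI of Adipoq, Plin1, Cidec, Ucp1 or Lep were left aside, 2 genes passed, Camk1d and Slc15a2 (edgeR adjusted p = 0.0114). On the lower side Mtap, an enzyme of methionine salvage, had 11, 11, 35 and 26 UMIs (log2 fold change -1.71, adjusted p = 0.362). Nts, the neurotensin gene, had 3, 7, 21 and 16 UMIs (log2 fold change -2.13, adjusted p = 0.378), and Cfl1, an actin-severing protein, had 40, 50, 84 and 61 UMIs (log2 fold change -0.94, adjusted p = 0.414).

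**Figure D4:**
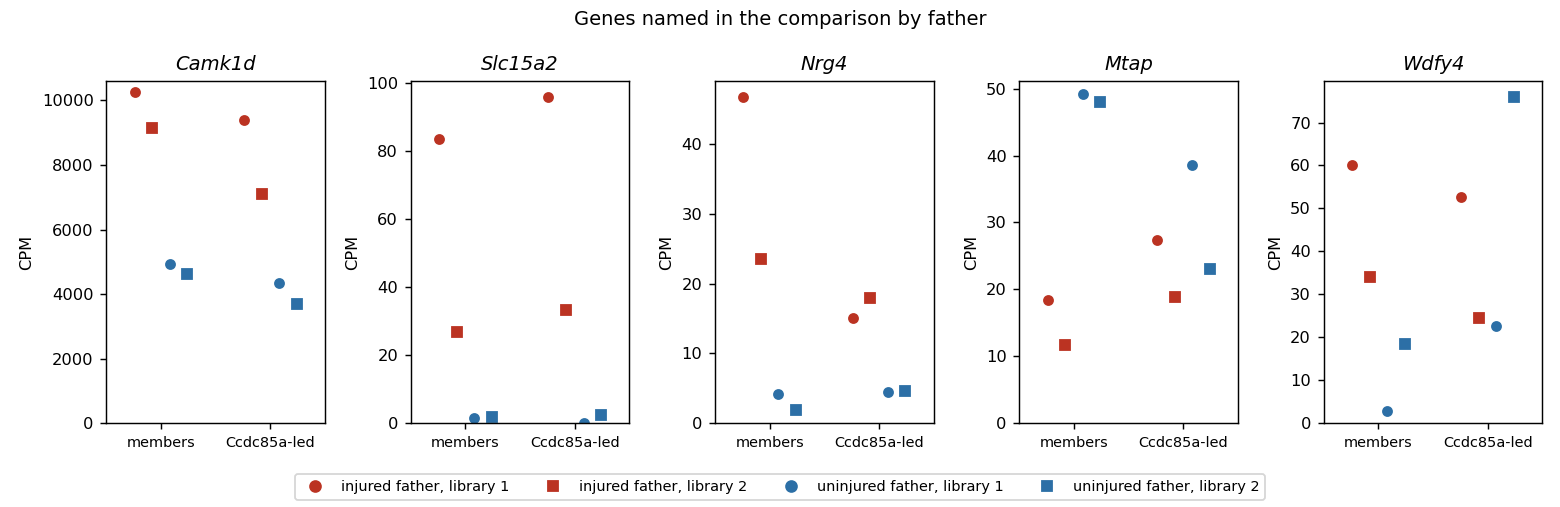
CPM of 5 genes in members and in Ccdc85a-led nuclei of each library (red for injured fathers, blue for uninjured fathers). Camk1d is at 9153 to 10274 CPM in the injured-father members and 4624 to 4936 CPM in the uninjured-father members; the order of Wdfy4 in Ccdc85a-led nuclei is mixed.

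No gene of the lists of endothelial function passed the test. As background, the libraries of injured fathers lay wholly above those of uninjured fathers for 15.4% of genes and wholly below for 20%, and the median log2 fold change over all genes was -0.0039. In the lipid list, 15 of 25 tested genes had positive log2 fold changes (median 0.07), with 5 wholly above and 3 wholly below. The Notch list had 2 of 15 positive (median -0.09) with 6 wholly below, chemokines and adhesion 2 of 12 (median -0.24) with 5 below, and tip cell genes 3 of 15 (median -0.15) with 6 below. The 10 cardiomyocyte markers were all negative (median -0.30) and so were the 5 tested pericyte markers (median -0.54). Set R itself had 1 of 5 positive (median -0.25), and since it chose the nuclei this is a description.

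The 4 list genes below are named after their values were seen and did not pass the test. Ppara, a fatty acid oxidation regulator, stood at 96.9, 93.9, 56.3 and 42.5 CPM (log2 fold change 0.95, SE 0.24, adjusted p = 0.423). Acsl1, which activates fatty acids, stood at 182, 149, 99.9 and 102 CPM (log2 fold change 0.73, SE 0.19, adjusted p = 0.486). Id1 stood at 200.5, 210.3, 303 and 340.1 CPM (log2 fold change -0.61, SE 0.15, adjusted p = 0.423). Isg15, an interferon-induced modifier, stood at 13.4, 11.7, 29.6 and 35.1 CPM (log2 fold change -1.33, SE 0.40, adjusted p = 0.702). For each of these genes the groups did not overlap, as was true of the shares of all genes given above.

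**Figure D5:**
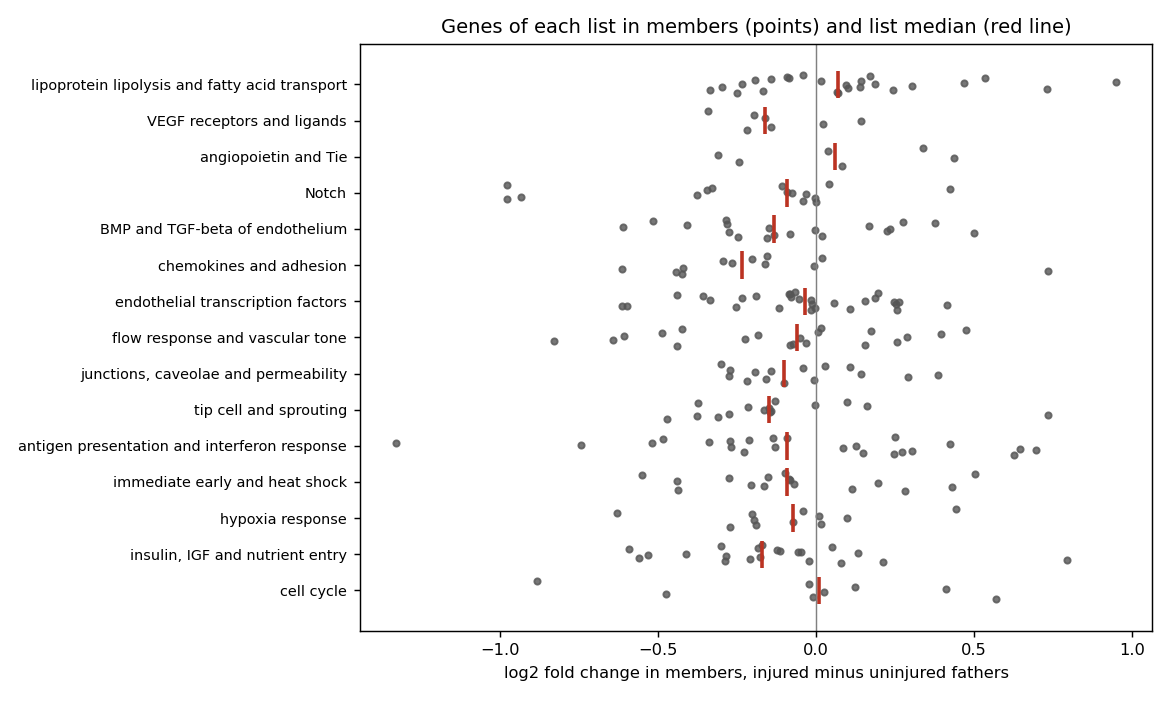
log2 fold change (injured minus uninjured fathers, edgeR) of each tested gene in 15 lists, in members (points), with the list median as a red line. Medians lie between -0.24 (chemokines and adhesion) and 0.07 (lipoprotein lipolysis and fatty acid transport), and no gene shown passed the adjusted threshold.

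The same comparison in Ccdc85a-led nuclei called 4 of 9711 genes higher (0.0412%) and 0 lower (0%). DESeq2 and limma-voom also called 0 lower by adjusted p; at an unadjusted p under 0.05, 222 were lower by edgeR, 40 by DESeq2 and 242 by limma-voom. The 4 higher genes were Slc15a2, Gpd1, Car3 and Camk1d. In these nuclei Gpd1 had 28, 33, 1 and 1 UMIs and Car3 had 15, 69, 0 and 0. Adipocyte markers summed to 29.4, 49.4, 4.55 and 6.91 CPM there, and their part in these calls was not tested. Both comparisons share the 4 hearts, so they are not independent. A test of whether the difference between fathers itself differed between members and Ccdc85a-led nuclei called 1 of 9492 genes higher (0.0105%) and 0 lower (0%, with 216 at an unadjusted p under 0.05). For Camk1d this difference was -0.02 on the log2 scale (adjusted p = 0.999) and for Slc15a2 it was -0.94 (adjusted p = 0.999). The gene called was Wdfy4, a gene of cross-presentation by dendritic cells, at 60.1, 34.2, 2.81 and 18.5 CPM in members and 52.7, 24.5, 22.7 and 76.0 CPM in Ccdc85a-led nuclei (log2 difference 2.56, adjusted p = 0.0321). In members its UMIs numbered 36, 32, 2 and 10, and 21 of the 36 and 20 of the 32 lay in 1 nucleus each. The 5 B lymphocyte markers summed to 162, 65.1, 29.6 and 92.4 CPM in members and to 196, 61.2, 53.0 and 131 CPM in Ccdc85a-led nuclei, and their part in the result was not tested. It did not pass without injured-father library 1 (edgeR adjusted p = 0.276), injured-father library 2 (0.573) or uninjured-father library 2 (0.0910). DESeq2 and limma-voom called no gene in this test (13 and 181 higher, 8 and 199 lower at an unadjusted p under 0.05).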

How the data were processed

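Nuclei of 4 hearts were analysed from the deposited matrices of raw UMI counts per gene and nucleus, which per the file headers come from Cell Ranger 6.0.1; Seurat 4.0 is among their tools per the submitters' processing notes. The genome build used for counting is not given in the sources used here; gene positions come from GENCODE M21 (GRCm38), which holds 21779 of the 21884 feature IDs, and the few promoters printed from the RefSeq table. The members, gene lists and tests were chosen with earlier results of these data known.

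Counts were summed per library and population, with the heart as the replicate. For the comparisons by father within a population, edgeR p-values rest on the spread between 2 hearts per group, with information on spread shared across genes. Genes were filtered by filterByExpr (minimum count 10), scaled by TMM and tested with edgeR 4.0.16 (quasi-likelihood, two-sided, adjusted p under 0.05 by Benjamini-Hochberg; R 4.3.3). Standard errors were derived from the test, as the size of the log2 fold change over the root of its F statistic. The difference between populations was fitted with library as a block, so its p-values rest on the spread of the difference within hearts. Scripts were tested on simulated data. Each library held 541094 to 936898 member UMIs. Doublets were marked by Scrublet through scanpy 1.11.5 and kept. Alternatives used DESeq2 1.42.0 and limma 3.58.1, other filters, scaling and thresholds, and libraries left out.

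Named genes are those past the threshold with groups that do not overlap (up to 12 per direction in members, 6 for the difference between populations), or the 3 smallest unadjusted p values where fewer than 3 passed; between populations, the 12 with the largest ratio held in all 4 libraries (20 CPM added, 30 CPM minimum); and genes of the rule and lists. Predicted genes are not named, and 1 gene with a large ratio between populations is not reported here. Same-numbered libraries were not treated as pairs. The correlation of same-numbered deviations was -0.013 in members, which cannot show whether those libraries were processed together. The rule's Nrg1 was summed over both of its feature IDs.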

Additional observations from a re-analysis of the deposited data

Results flagged for a closer look

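Wdfy4 was the gene whose difference between fathers differed between members and Ccdc85a-led nuclei by a test of that difference (edgeR quasi-likelihood test of the interaction, log2 difference 2.56, adjusted p = 0.0321). Its UMIs in members lay largely in single nuclei of the injured-father libraries (21 of 36 and 20 of 32). The adjusted p was 0.586 when members with a UMI of adipocyte markers other than Cidea were left aside and 0.000446 when members with lymphatic markers were left aside, both chosen after seeing the data. Without injured-father library 1, injured-father library 2 or uninjured-father library 2 it was 0.276, 0.573 and 0.0910 (edgeR). It was 0.852 in nuclei with under 1% mitochondrial UMIs. Over all alternatives run, the adjusted p ranged from 0.000181 to 0.999976, and the log2 difference stayed positive, between 1.79 and 3.28.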

How the results depend on the processing

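The difference in the share of members among all nuclei, 0.0217 percentage points, turned to -0.106 with 6 or more UMIs of set R, and ran from -0.388 to 0.431 when 1 library was left out; it was negative without injured-father library 2 (-0.388) and uninjured-father library 1 (-0.381). Camk1d stayed higher in members under every alternative (log2 fold change 0.98 to 1.12) and passed in all but 1: in nuclei with under 1% mitochondrial UMIs and at least 500 genes its adjusted p was 0.0612, and no gene passed (0 higher, 222 at an unadjusted p under 0.05 by edgeR). Against 1 higher gene and 0 lower, 38 and 7 passed with no filter beyond 1 UMI, 2 higher with nuclei thinned to at most 2000 UMIs, 6 and 5 higher with set R thresholds of 3 and 6 UMIs, and 2 higher without members holding adipocyte markers. Leaving out 1 library in turn gave 1 to 49 higher genes and 0 to 24 lower; injured-father library 2 (49 and 24) and uninjured-father library 2 (25 and 19) moved the counts most, injured-father library 1 gave 4 and 2, and the lone library left is assumed to vary like the others. With the replicate number as a replicate block, 8 genes were higher and 0 lower in members and 5 and 0 in Ccdc85a-led nuclei. Whether the numbers pair the libraries is not known. The test of the difference between populations, 1 gene, gave 0 with DESeq2, limma-voom, nuclei under 1% mitochondrial UMIs, thinning or no block for library, 2 with total-count scaling or without marked doublets, 4 with no filter or without members holding lymphatic markers, 5 with either other set R threshold, and 0 to 14 with 1 library left out (0 without injured-father library 1, 14 and 2 without uninjured-father libraries 1 and 2). In Ccdc85a-led nuclei, 4 higher genes became 1 with DESeq2 or limma-voom, 2 with total-count scaling, without doublets or in low mitochondrial nuclei, 0 with thinning, and 39 higher and 8 lower with no filter; leaving out any 1 of the 4 libraries gave 15 to 36 higher and 4 to 22 lower. The cause was not tested in any of these. With 2 hearts a group, a gene that missed the threshold is not shown to be alike in both groups.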
